A study of Homo sapiens with 4 samples.

Results

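Chromatin immunoprecipitation sequencing (ChIP-seq) gave 1 list of peaks for control cells and 1 for cells given TGF-β1 (transforming growth factor β1). The sites described here are those where peaks of both lists lay close together, with or without overlap. They were taken from chromosomes 1 to 22 after leaving out each 1 Mb bin that held 20 or more peaks of both lists together. Members were chosen by summit distance: a peak was kept when its summit, the base of highest coverage, lay within 2 kb of a summit of the other list. Of the 21300 deposited peaks, 14249 lay on these chromosomes outside such dense bins, and 312 of them were members, 155 from the control list and 157 from the TGF-β1 list. Linked into chains of summits at most 2 kb apart, the 312 peaks formed 147 sites, called recurrent sites below. At 55 of the 147 the peaks of the 2 lists did not overlap. The choice used the summit positions of both lists, so the closeness of the summits is a description, and the recurrence itself was not tested.

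The human cells carry the cell line label HSC and are described as stem cells and progenitors. For either condition 1 ChIP library was set against 1 input library, which is sheared chromatin without immunoprecipitation. The TGF-β1 cells received the factor at 20 ng/mL for 2 h, and the labels of all 4 libraries also name GDF11 at 100 ng/mL as another treatment without saying which cells received it. No source used here names the antibody, and ChIP peaks hold no expression markers against which to check the labelled cell type. With 1 library per group there was no replicate check and no test between conditions, and every interval below covers counting error only.

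A ChIP peak is a stretch where immunoprecipitated fragments pile up above the local background, and a true binding site of a stable factor usually returns at nearly the same base in separate libraries. Stretches of repeated sequence can also return, because reads from many copies in the cell are placed on the few copies in the reference genome. TGF-β1 signals through SMAD transcription factors, which act with the lineage factors of each cell type, such as the ETS and GATA factors of blood progenitors.

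Members were a small share of the peaks outside the dense bins, 4.98% of 3110 control peaks (95% Wilson interval 4.27% to 5.81%) and 1.41% of 11139 TGF-β1 peaks (1.21% to 1.65%). These shares describe what the rule selected. Most sites, 140 of 147, held exactly 1 summit of each list, and 7 held 3 or more. The sites lay in 141 different bins on all 22 chromosomes. Chromosome 3 had the highest number (17 sites, or 7.73% of its control peaks outside the dense bins). Chromosome 19 had the highest share (6 sites, 7 of 51 control peaks, 13.7%). Peaks of the 2 lists overlapped at 13 of the 17 sites on chromosome 3 but at only 1 of the 6 on chromosome 19.

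Within the 2 kb window the summits were not spread evenly. Of the 155 control members, 97 had a TGF-β1 summit within 0.25 kb, 81 within 0.1 kb and 31 within 25 bp. The median distance was 97 bp, with quartiles at 39.5 and 1047 bp and a range of 1 to 1979 bp. The first 500 bp held 101 control peaks, the stretch from 0.5 to 2 kb held 54, or 18.0 per 500 bp, and the stretch from 2 to 10 kb held 206, or 12.9 per 500 bp. For TGF-β1 peaks the corresponding counts were 99, 58 (19.3 per 500 bp) and 222 (13.9 per 500 bp). Thus the members were a tight set within 0.25 kb and a thin set whose density was nearer to that beyond the window. The TGF-β1 summit lay at the higher coordinate for 77 control members and at the lower for 78, and no pair shared its exact base.

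**Figure D1:**
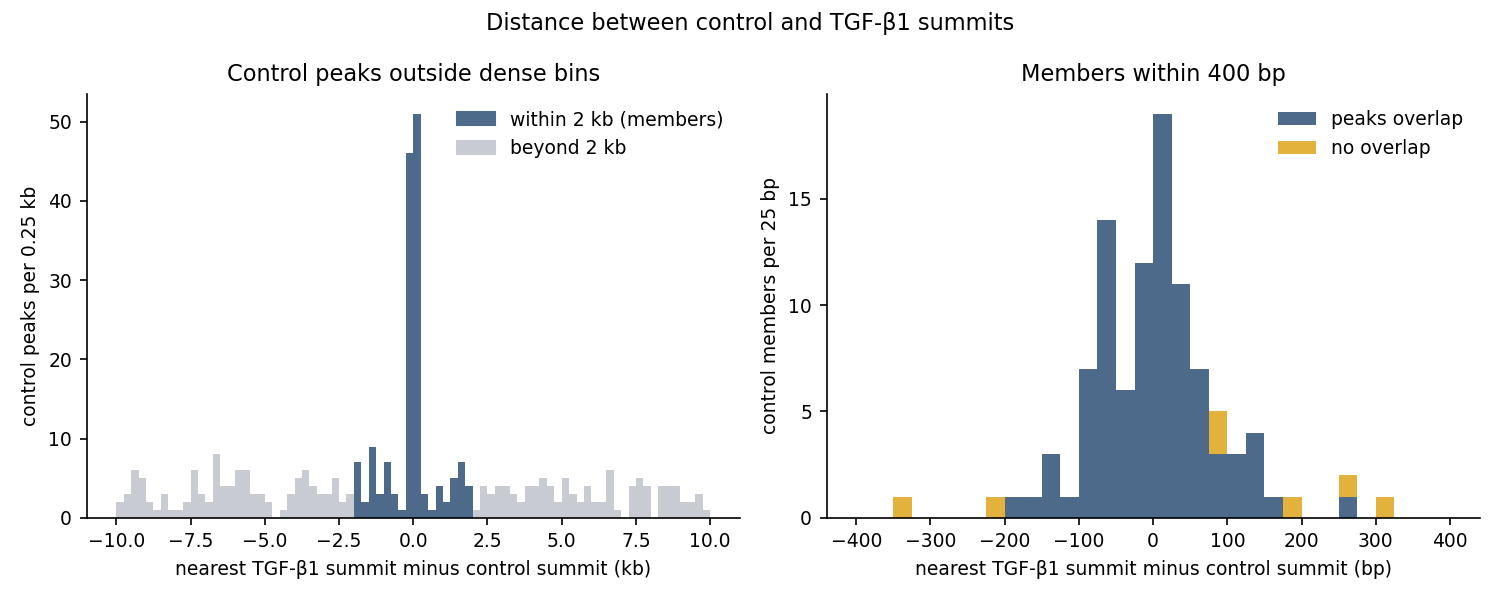
Distance from each control summit outside the dense bins to its nearest TGF-β1 summit, up to 10 kb on the left in steps of 0.25 kb (members dark, other control peaks grey), and for members within 400 bp on the right in steps of 25 bp, by whether the peaks overlap. The 97 control members within 0.25 kb stand in the bars on either side of 0. Counting both sides, the other members are few at 0.25 to 0.5 kb (4) and number 15, 19 and 20 in the 3 steps of 500 bp from there to 2 kb.

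The tight set was nearly the same as the peaks that overlap. An overlap of at least 1 bp was found for 94 control members (60.6%, 52.8% to 68.0%) and 94 TGF-β1 members. The same 94 peaks of each list were the only overlapping ones outside the dense bins, 3.02% of all control and 0.844% of all TGF-β1 peaks there. The gap between 60.6% of control members and 3.02% of all control peaks follows from the choice of members by summit distance. The share is lower for TGF-β1 peaks because their list is longer. These overlaps were 8 to 210 bp long, with a median of 129 bp. The control summit fell inside the nearest TGF-β1 peak in 70 of the 94 cases, and the TGF-β1 summit inside the control peak in 75. The median distance between their summits was 46 bp. The 61 control members without overlap had a median distance of 1285 bp. Just inside the limit, at 1.5 to 2 kb, lay 20 control members with pileups of 13 to 37 and folds of 2.14 to 5.03, and just outside it, at 2 to 2.5 kb, lay 10 control peaks with pileups of 13 to 24 and folds of 2.43 to 3.94.

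Peak heights are given here as the deposited pileup, the number of ChIP tags extended to fragment length that cover the summit. Control members had a median pileup of 20 tags (quartiles 17 and 24, range 12 to 228), and all control peaks outside the dense bins a median of 19 (range 10 to 296). TGF-β1 members had a median of 19 (quartiles 16 and 23, range 12 to 245) against 17 for all TGF-β1 peaks there (range 9 to 245). The deposited fold enrichment, pileup against local background, had medians of 3.29 in control and 3.55 in TGF-β1 members, beside 3.52 and 3.63 in all peaks outside the dense bins. In height and fold the middle of the members was thus close to the middle of the other peaks. The upper end was taken as the top 10% of each list outside the dense bins. By pileup it held 31 of 155 control members (20.0%, 14.5% to 27.0%) and 34 of 157 TGF-β1 members (21.7%, 15.9% to 28.7%). With ties, it held 9.77% of all control and 8.80% of all TGF-β1 peaks there. By fold it held 18 members of each list (11.6% and 11.5%), near the 9.90% and 9.91% of all peaks there.

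Peak length had a median of 175 bp in control members (range 148 to 498) and 165 bp in TGF-β1 members (range 136 to 330). All peaks outside the dense bins had medians of 173 and 160 bp. The lower ends are the shortest lengths the caller allows, its fragment lengths of 148 and 136 bp, and 14 members of each list sat there (9.03% and 8.92%), against 14.2% of all control and 14.3% of all TGF-β1 peaks outside the dense bins. The longest member was the 498 bp control peak in the cluster near HGSNAT described below. The next longest were a control peak of 330 bp far from genes on chromosome 2, nearest to CTNNA2 at 1430 kb, a TGF-β1 peak of 330 bp at 10.9 kb from POTEA, a TGF-β1 peak of 328 bp in PDE10A, which encodes a cyclic nucleotide phosphodiesterase, and a control peak of 320 bp in VRK2, a kinase gene.

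Peaks over high local background were a larger share of members than of other peaks. Local background was computed from pileup and fold and is given as a multiple of the genome-wide value, 1.99 tags for control and 2.32 for TGF-β1. A value above 5 times was counted as high. It was high for 25 of 155 control members (16.1%, 11.2% to 22.7%) and for 130 of the 2955 other control peaks outside the dense bins (4.40%, 3.72% to 5.20%). Among TGF-β1 peaks it was high for 17 of 157 members (10.8%, 6.87% to 16.7%) and for 144 of 10982 others (1.31%, 1.11% to 1.54%). For all peaks of each list outside dense bins, 4.98% (control) and 1.45% (TGF-β1) were over high background. These members were few but held the tallest peaks, with median pileups of 107 (control) and 106 (TGF-β1) and median folds of 2.20 and 2.09. Over low background, the 130 control members had pileups of 12 to 31 and the 140 TGF-β1 members pileups of 12 to 70. Median local background was closer, 2.74 times in control members against 2.19 in the others, and 1.73 against 1.70 for TGF-β1. The 42 members over high background came from 17 sites, 6 of the control peaks from 1 cluster near HGSNAT, so they are not separate counts and the intervals are too narrow. Their share of all members, 13.5%, was 6.19% without bins of 10 or more peaks, 2.54% with lists of equal length by fold, 23.2% with a −log10 q of at least 3 and 29.8% with a limit of 3 times. The lists of equal length keep the TGF-β1 peaks of highest fold, so they drop peaks of low fold, as most over high background were. The part of local background in the recurrence was not tested.

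**Figure D2:**
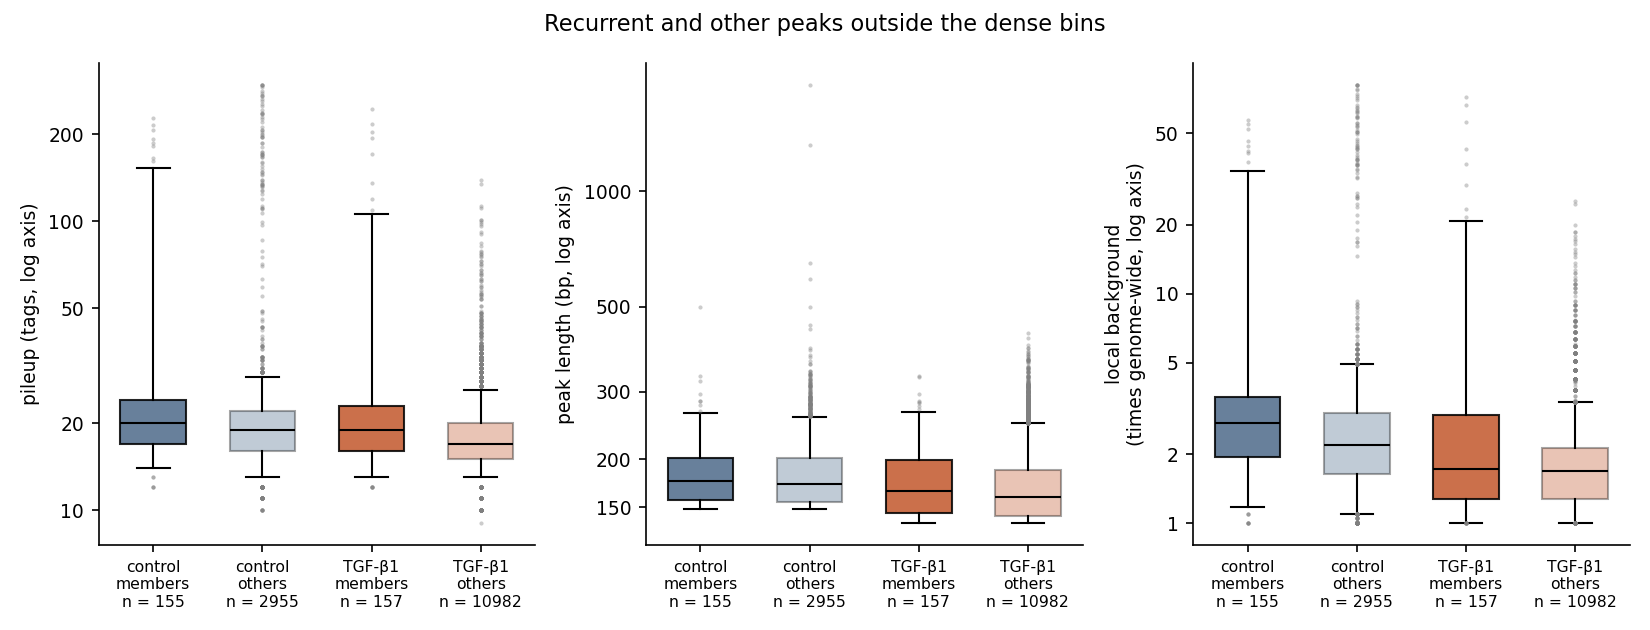
Pileup, peak length and local background of members and of the other peaks outside the dense bins, on log axes. Boxes run from the first to the last quartile with the median as a line, whiskers reach the percentiles 5 and 95, and dots are peaks beyond them. The boxes of members and others overlap in each panel, and the upper whiskers of members reach higher for pileup and local background.

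Heights were also compared site by site, with the highest pileup of each list. The TGF-β1 to control ratio of pileups had a median of 1.00 and quartiles of 0.801 and 1.125, and 146 of the 147 sites lay between 0.5 and 2. TGF-β1 was the higher at 65 sites, control at the rest except for 10 ties. The TGF-β1 library was deeper (45984282 ChIP tags after removal of duplicates, against 36280696). As a multiple of each library's genome-wide background, the ratio had a median of 0.859, and TGF-β1 was the higher at 30 sites (20.4%, 14.7% to 27.6%). All peaks outside the dense bins stood in the same order, with medians of 9.55 times the background for control and 7.34 times for TGF-β1. Both peaks of a site had to pass the caller's limit, which restricts the ratios that can enter. Sites without overlap also had a median ratio of 1.00 (quartiles 0.792 and 1.20), beside 0.978 (0.816 and 1.08) with overlap. Pileups of all peaks outside the dense bins had narrow quartiles, 16 and 22 for control and 15 and 20 for TGF-β1. Ratios near 1 therefore do not show agreement at a site. The rank correlation of the 2 heights was 0.469 over 147 sites and 0.380 over the 137 sites with both pileups under 40. The points share the same 2 libraries and the same limits.

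**Figure D3:**
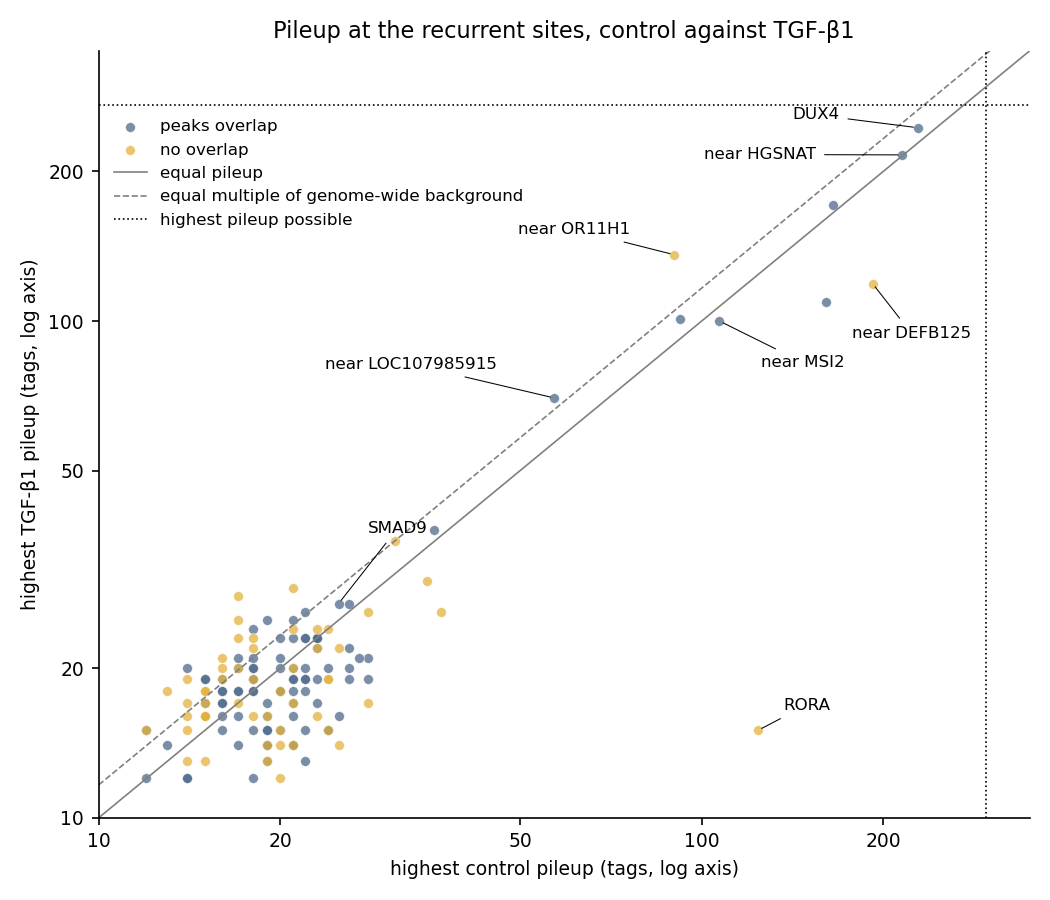
Highest control and TGF-β1 pileup at each of the 147 sites, on log axes, by whether peaks overlap. The solid line marks equal pileup, the dashed line equal multiples of the genome-wide background, and the dotted lines the highest pileup that 1 tag per position allows. Of the sites, 137 lie below 40 tags in both lists, 9 at or above 50 in both, and RORA lies apart with 124 control and 15 TGF-β1 tags.

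The sites inside or nearest to genes of the TGF-β pathway and of blood were few. SMAD9 encodes a receptor-activated SMAD of the bone morphogenetic protein branch of TGF-β signalling. Its site (hg38, gene at chromosome 13, 36844831 to 36920854) had a control peak at 36914311 to 36914458 with 25 tags and a TGF-β1 peak at 36914274 to 36914496 with 27 tags. The control peak lay whole within the TGF-β1 peak, the summits were 7 bp apart, and they lay in the gene body, the TGF-β1 summit 5.85 kb from the start in the RefSeq table of promoters. The folds were low, 2.83 and 2.37, and the −log10 q-values were 2.90 and 2.17, with local backgrounds of 4.11 and 4.67 times the genome-wide value. SMAD9 was the only one of 36 TGF-β pathway genes with a recurrent site. Of the 36, 6 had a control peak assigned (in the gene body, or nearest to it within 100 kb), 16 a TGF-β1 peak and 4 both. Over 19126 protein-coding genes those shares were 9.47%, 25.9% and 5.55%, and 0.502% had a recurrent site.

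ERG, which encodes an ETS transcription factor of blood stem cells and endothelium, held the only site among 25 blood stem and lineage genes. Its control peak (chromosome 21, 38603974 to 38604121) and TGF-β1 peak (38604206 to 38604369) each had a pileup of 17 tags, with folds of 3.05 and 3.04. The 2 peaks did not overlap, and their summits were 192 bp apart. Of the 25 genes, 3 had a control peak, 8 a TGF-β1 peak and 3 both. The erythroid and globin list had no recurrent site in 22 genes, of which 1 had control and 10 had TGF-β1 peaks assigned. The MYC network had none in 13 genes, of which 0 had control and 5 had TGF-β1 peaks. Those 13 include the non-coding genes PVT1 and CCDC26, which could receive no peak, since only protein-coding genes were assigned. Over all protein-coding genes, 9.47% had a control peak, 25.9% a TGF-β1 peak, 5.55% both and 0.502% a recurrent site. With lists this short, 0 or 1 site does not set a list apart from all genes.

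A tall overlapping pair lay upstream of MSI2, which encodes an RNA-binding protein that regulates translation in blood stem cells. It was 32.7 kb upstream of the gene. The control peak (chromosome 17, 57223021 to 57223208) had 107 tags and the TGF-β1 peak (57223033 to 57223199) had 100, with summits 6 bp apart, folds of 3.37 and 3.67 and −log10 q-values of 20.8 and 21.8. The local background was 15.6 and 11.5 times the genome-wide value, and the nearest dense bin was 30223 kb away. MSI2 was not in the lists of genes and is named here because the site was among the 10 of greatest height in both lists.

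**Figure D4:**
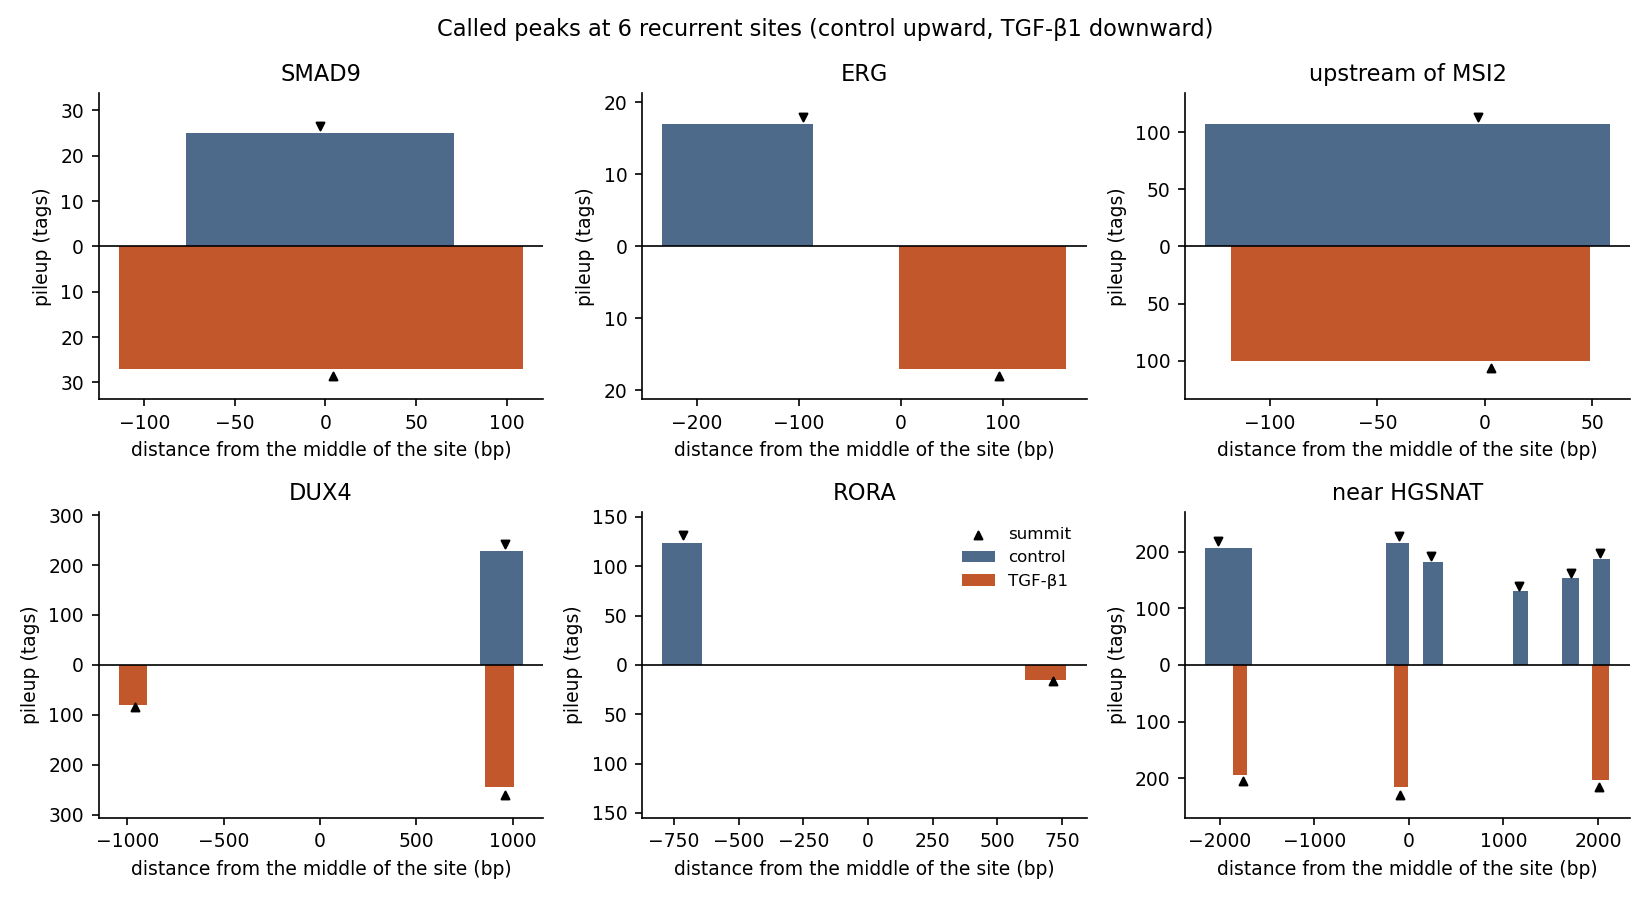
Called peaks at 6 recurrent sites, as boxes from the first to the last base with the pileup at the summit as height, control upward and TGF-β1 downward, against the distance in bp from the middle of the site. The height scale differs between panels. At SMAD9 and near MSI2 the boxes overlie each other, at ERG they lie side by side, at RORA 124 control tags face 15 TGF-β1 tags at another position, and at DUX4 and near HGSNAT the pileups reach 245 tags.

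Tall sites were more often beside dense bins than low ones, though not in every case. With both pileups at 50 or more there were 9 sites, and 5 of them lay within 1 Mb of a dense bin, against 4 of the 137 sites with both under 40, a description without a test. The highest was in DUX4, an embryonic double-homeobox transcription factor gene that lies in a tandem repeat near the end of chromosome 4. This site was 138179 kb from the nearest dense bin. There the control summit had 228 tags and the TGF-β1 summit 245, the highest pileup of the whole TGF-β1 list, with the summits 1 bp apart. Their folds were only 2.00 and 1.46, over local backgrounds of 57.0 and 72.1 times the genome-wide value. A second TGF-β1 peak of 80 tags lay at 190177644 to 190177790, its summit 3.96 kb from the start of DUX4. Copies of this repeat are nearly identical, so the gene to which the reads belong is uncertain.

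The site with the most summits was 37.0 kb from HGSNAT, a lysosomal enzyme gene on chromosome 8, with 6 control and 3 TGF-β1 summits over 4046 bp. Its control pileups ran from 131 to 215 tags and its TGF-β1 pileups from 194 to 216, with folds of 1.95 to 2.23 and 1.40 to 2.05. On the short arm of chromosome 22, 4158 and 4314 kb from OR11H1, 2 sites had 90 to 161 control and 109 to 136 TGF-β1 tags as their highest pileups. Sites on chromosome 6 (165 and 171 tags, 1311 kb from KHDRBS2), chromosome 19 (92 and 101 tags, 766 kb from ZNF254) and chromosome 20 (192 and 119 tags, 21.8 kb from the defensin gene DEFB125) also had folds of at most 3.05 at their tallest peaks. The chromosome 20 site was 25934 kb from the nearest dense bin, and chromosome 19 had no dense bin. An exception in fold was the site on chromosome 2 at 94085510 to 94085708, 85.6 kb from a dense bin, where 57 control and 70 TGF-β1 tags gave folds of 3.96 and 7.21. Its TGF-β1 fold was the highest of all members. The tenth site by height, also on chromosome 22 and 4755 kb from OR11H1, had 36 and 38 tags. The remaining sites with 3 summits were of ordinary height, 33.2 kb from CCDC18 (21 control tags, 18 and 24 TGF-β1 tags) and 34.3 kb upstream of SOX21, a SOX transcription factor gene (23 control tags, 19 and 18 TGF-β1 tags).

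The caller kept 1 tag per position, which limits pileup to 2 tags per base of fragment length, 296 for control and 272 for TGF-β1. The control list reached 296. DUX4 stood at 77.0% and 90.1% of these limits. Whether they held down its height and fold was not tested, and pileups near the limit cannot be compared between conditions. The median member stood at 6.76% and 6.99%.

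RORA, a nuclear receptor gene, had the most unequal site. Its control peak (chromosome 15, 60561083 to 60561235) had 124 tags, a fold of 3.02 and a local background 20.3 times the genome-wide value. The TGF-β1 peak (60562487 to 60562645) had 15 tags and a background of 1.27 times, and lay 1434 bp away without overlap. The next lowest ratios were in TENM3 (25 and 14 tags), FOXP2 (22 and 13), near LOC124901649 (20 and 12) and in PDE1A (28 and 17), of which FOXP2 alone had overlapping peaks. The highest were near THOC3 (17 and 28 tags), at 1 of the chromosome 22 sites (90 and 136), in PDE10A (17 and 25), in CDH18 (14 and 20) and near PLPP1 (13 and 18), and there only the CDH18 peaks overlapped. Outside RORA and the chromosome 22 site these pileups were 28 tags or fewer, and no replicate shows how far such counts vary.

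Away from the tall sites, the closest pairs had ordinary heights. In CCDC32 the summits were 1 bp apart, with 18 control and 19 TGF-β1 tags. C12orf42 had a distance of 2 bp (21 and 16 tags), MAGI3, a scaffold protein gene, 3 bp (22 and 15), and a site 20.4 kb upstream of the ephrin gene EFNA5 3 bp (20 and 20). A site 409 kb from OR4C46 had 15 and 19 tags with the summits 6 bp apart, and a site 659 kb from KCNMB2 had 16 and 19 tags with the summits 9 bp apart. By fold in both lists, the pair 127 kb from HS3ST4 led with 6.60 in the control and 5.23 in TGF-β1 (20 and 21 tags, summits 20 bp apart), followed by the pair 117 kb from UBE3D with 5.10 and 5.32. Both lay over local background below 1.5 times the genome-wide value. Their folds were above those of 94.6% to 99.9% of the peaks of their lists outside the dense bins.

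By position, 60 of the 147 sites lay inside protein-coding genes (40.8%, 33.2% to 48.9%), which is near the 40.6% of control and 43.8% of TGF-β1 peaks outside the dense bins. Another 34 lay within 100 kb of a gene, 30 at 100 to 500 kb and 23 beyond 500 kb (15.6%, 10.7% to 22.4%, against 11.3% and 9.27%). In no protein-coding gene but in a non-coding gene or pseudogene lay 16 sites, such as LINC00639 and LINC02015. Distances to starts used the tabulated starts and the 5′ ends of 15101 protein-coding genes, and left out chromosome 8 and 3310 genes with no entry. Within 5 kb of such a start lay 2 of 141 sites, in TENM3, which encodes a teneurin (0.566 kb), and in DUX4. The TENM3 distance is to the 5′ end of the gene, and the nearest tabulated start was 694 kb away. With tabulated starts alone, 1 of 141 sites lay within 5 kb. Of the members, 1 of 144 control and 2 of 149 TGF-β1 peaks lay within 5 kb of a start of either kind (0.694%, 0.123% to 3.83%, and 1.34%, 0.369% to 4.76%), against 4.01% of all control and 4.06% of all TGF-β1 peaks outside the dense bins. Within 10 kb lay 10 sites, with 10 control members (6.94%) and 10 TGF-β1 members (6.71%), against 9.27% and 8.83% of all peaks. They include THOC3 (5.66 kb), TMEM254 (5.90 kb) and MAP2K6, a kinase gene of the p38 pathway, where the start at 7.75 kb is an internal one. A promoter window of 250 bp before to 50 bp after a start held 0 of the 293 members and also 0% of all 2946 control and 0% of all 10529 TGF-β1 peaks outside the dense bins.

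The sites were inside 62 genes, some of which overlap each other, with a median length of 224 kb against 24.5 kb for all protein-coding genes. Summits of both lists fell inside 606 genes of median length 276 kb, and 62 of those (10.2%) had a recurrent site, so that in most genes hit in both lists the summits lay apart. The very long adhesion and neuronal genes show this. Of 47 such genes, 40 had a control peak, 45 a TGF-β1 peak and 39 both, and 7 had a recurrent site. CNTNAP2, a neurexin-family gene of 2304 kb, held 8 control and 12 TGF-β1 summits and 1 recurrent site (14 and 15 tags, summits 89 bp apart, no overlap). MACROD2 held 6 and 10 summits and 1 site (15 and 17 tags, overlap of 99 bp), and RBFOX1, a splicing regulator gene, 3 and 12 summits and 1 site with the summits 849 bp apart. SGCZ, PCDH9 and CDH18 each had 1 overlapping pair with pileups of 14 to 21 tags, and MAGI2 had a pair 1097 bp apart. Among the 505 zinc finger genes, 3 had a site (0.594%, near the 0.502% of all genes), ZNF362, ZNF100 and ZNF257. Among 391 olfactory receptor genes 0 had a site, and 3 (0.767%) had a peak of both lists assigned. Longer genes hold more summits of any kind, so the size of these genes and their recurrence cannot be told apart here.

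**Figure D5:**
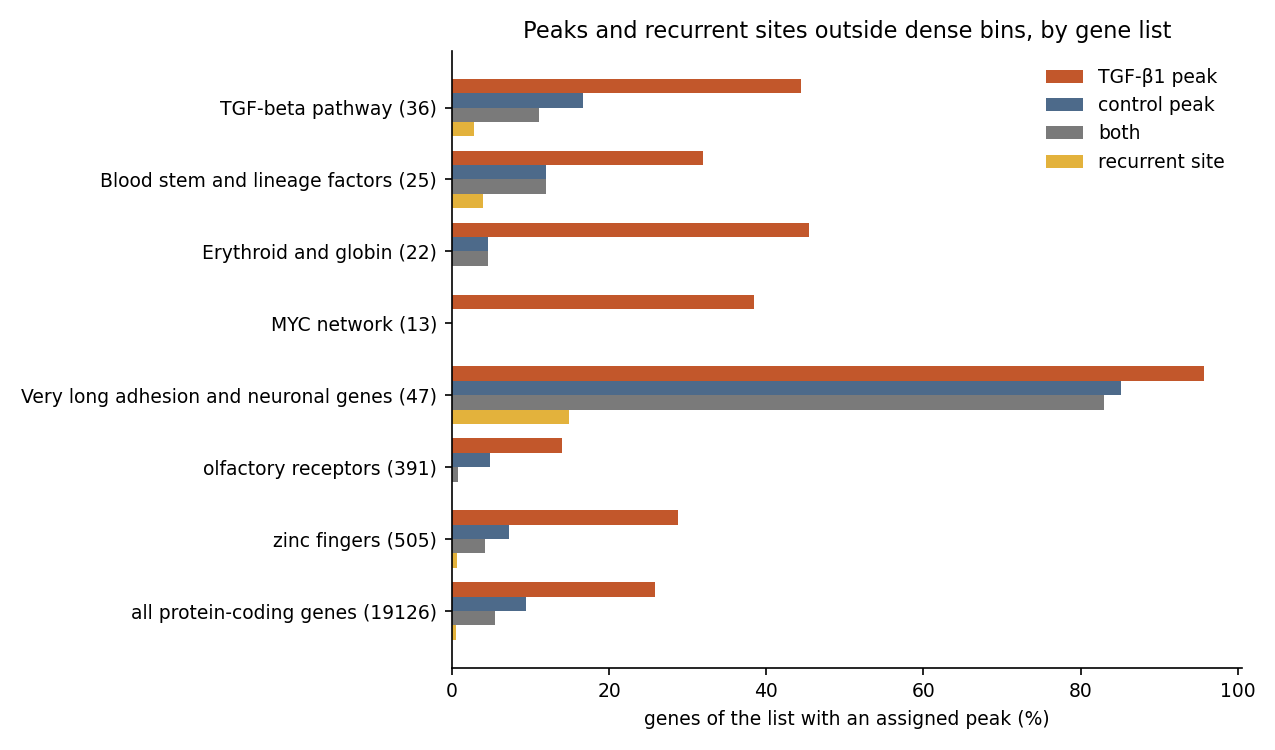
Share of the genes in each list, with the number of genes in brackets, that had a TGF-β1 peak, a control peak, both, or a recurrent site assigned outside the dense bins. The MYC network list counts the non-coding genes PVT1 and CCDC26, which could receive no peak. Recurrent sites reach 14.9% of the very long genes, 4.00% of the blood and 2.78% of the TGF-β pathway genes (1 gene each), and 0.502% of all protein-coding genes.

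The limit of 20 peaks per bin also touched the members. The 8 bins with 16 to 19 peaks held 25 members with a median pileup of 109 tags, whereas members in bins of 2 to 5, 6 to 10 and 11 to 15 peaks each had a median of 19. In the 65 dense bins, which were left out, 865 of 1689 control peaks (51.2%, 48.8% to 53.6%) and 1230 of 4420 TGF-β1 peaks (27.8%, 26.5% to 29.2%) lay within 2 kb of the other list, with a median pileup of 100 tags. The 6 dense bins nearest to the limit, with 20 to 24 peaks, had 2 control and 2 TGF-β1 peaks within 2 kb of the other list, with a median of 19.5 tags, so height did not change in 1 direction across the limit.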

How the data were processed

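Per the submitters' processing notes, the authors used Bowtie2 and hg38. Those notes name MACS2 2.1.0, whereas the file headers name 2.2.7.1. Per the file headers, each peak list came from 1 ChIP and 1 input library with a q-value limit of 0.05, keeping 1 tag per position. Tag lengths were 60 bp (control) and 43 bp (TGF-β1). The deposited pileup is a signal, tag coverage at the summit. The deposited fold is a ratio of pileup to local background, and the deposited −log10 p-values and −log10 q-values come from the caller's test. All are the authors' values for each peak. With duplicates removed, the input had 66537905 tags for control and 46802425 for TGF-β1.

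From these, Python 3.11 with pandas 2.3.3 computed distances, overlaps (from 1 bp) and local background, (pileup + 1) / fold − 1. The pairing was tested on simulated data. Site positions are midpoints of the first and last summit. Genes, strands and starts came from RefSeq tables of GRCh38.p14, and starts on chromosome 8 or of genes with no entry, exons and peak sequences were not used here. The planned sequence features were not run without a genome. Named sites were the 10 highest in both lists, the 10 closest pairs, and the 5 largest and 5 smallest TGF-β1 to control ratios. Also named were those with 3 or more summits, near starts or in listed genes, and the 5 longest. The 5 shortest, also planned, were not named for length, because 14 TGF-β1 members shared the caller's shortest length of 136 bp. Other sites named for fold or place were chosen after their values were seen. Members and lists were chosen with earlier results of these data known. Shares have Wilson 95% intervals.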

Additional observations from a re-analysis of the deposited data

How the results depend on the processing

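Of 80 values recomputed under alternatives for 10 results, 55 stayed within 1.5 times the count, or within the binomial 95% interval of the median or share, and 25 moved. With 500 bp in place of 2 kb, 101 control and 99 TGF-β1 members were left, with a median distance of 51 bp. With 5 kb there were 238 TGF-β1 members, 221 sites and a median distance of 1047 bp. Requiring overlap left 94 members of each list, 93 sites and a median distance of 46 bp. Dropping bins from 10 peaks left 96 and 98 members at 96 sites, 6.19% of them over high background. With a −log10 q of at least 3 there were 70 and 68 members at 62 sites, a median control pileup of 21.5 tags and 23.2% over high background. With the TGF-β1 list shortened to the length of the control list by fold, 59 members of each list at 59 sites were left, with a median control pileup of 18 and 2.54% over high background. That setting drops TGF-β1 peaks of low fold, as most over high background were. High background counted from 3 times covered 29.8% of members, against 13.5% from 5 times. Restricting partners to summits outside dense bins moved no result, nor did leaving out all peaks over high background, an alternative chosen after seeing the data. The share of sites inside genes and both median lengths stayed within their intervals throughout. No paired analysis was possible because each group held 1 library. The depth limits single pileups of 12 to 30 tags, and no replicate separates sites that return from library to library from those that do not.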

Other observations

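The following single pairs lie in or near genes of no list. They were picked after their values were seen, form no tested group and are given as values only. KLRC1, which encodes an inhibitory receptor of natural killer cells, held a pair with 21 control and 20 TGF-β1 tags, folds of 4.57 and 4.26 and summits 51 bp apart. A pair 7.20 kb from CD86, the gene of a costimulatory ligand, had 28 and 19 tags and folds of 4.91 and 4.06. A pair 29.5 kb from BANK1, a B-cell scaffold gene, had 19 and 14 tags. A pair 4.25 kb from TSPOAP1 had 21 and 19 tags with an overlap of 8 bp, and its middle was 34.2 kb from MIR142, the gene of a microRNA abundant in blood cells. A pair 31.0 kb from NOG, the gene of the bone morphogenetic protein antagonist noggin, had 22 and 20 tags and folds of 2.66 and 4.56.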
